A study of Ovis aries with 6 samples.

Results

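The 6 rows described here are predicted small RNA loci of sheep that carry no known miRNA name and whose sequence shares 14 or more bases with tRNA-Gly, the transfer RNA that brings glycine to the ribosome. They were chosen by their listed sequence, with the breed difference of some of them already known, from the 11161 rows of a table of small RNA counts. The tRNA-Gly match comes with that choice and was not rechecked, since no tRNA sequence was used here. The table covers 6 libraries of longissimus muscle, the long muscle of the back, from 2 breeds of sheep kept under natural conditions. There were 3 libraries of Qianhua Mutton Merino (QHMM), a mutton breed, and 3 of the local Small Tail Han (STH). The labels give no age, sex or treatment other than the breed, and leave it unsaid if every library had its own animal, so the p-values below measure the spread between these libraries. All 6 loci were counted in all 6 libraries, and all 6 passed the filter on low counts, chr15_31200_mature only through its STH libraries.

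A tRNA folds into a cloverleaf with a D arm near its 5′ end, an anticodon arm in the middle and a T arm near its 3′ end. Nucleases cut tRNAs into shorter RNAs. Angiogenin cuts in the anticodon loop and leaves a 5′ and a 3′ piece, and cuts nearer the D arm leave shorter 5′ fragments that start at the first base of the tRNA. Fragments of the 5′ part of tRNA-Gly are known in mammals from serum, sperm and many tissues, and stress raises them in cultured cells. Programs that predict miRNAs from reads and a genome look for a stack of reads with a fixed 5′ end on a folding precursor, and such fragments can pass as mature miRNAs of loci where the genome holds a tRNA-like sequence.

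The sequences are shown first because their overlap governs how the counts can be read. They are written 5′ to 3′ as listed, with bases 2 to 8, the seed by which a miRNA would pair with its targets, in capitals.
chr8_19812_mature: gCATTGGTggttcagtggtag
chr10_23287_mature: gCATTGGTggttcagtggt
chr6_17247_mature: gCATTGGTggttcagtg
chr15_31200_mature: gCATTGGTggttcagttgt
chr2_6515_mature: cAGTGGTAgaattctgc
chr20_37683_mature: gTGGTATCatgcaagatt

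The first 3 are nested. chr10_23287_mature (19 nt) and chr6_17247_mature (17 nt) start at the first base of chr8_19812_mature (21 nt) and end 2 and 4 nt earlier, with no base that differs. A read of the fragment can therefore match all 3 rows, and the sources used here do not tell in how many of them it was counted. The 3 names place the loci on sheep chromosomes 8, 10 and 6, and the table gives no coordinates within them. chr15_31200_mature (19 nt) starts at the same base and differs at 1 position, G17T, counted from the first base of chr8_19812_mature. These 4 loci share the seed CATTGGT. Among the other rows of the table only chr2_7529_mature, a predicted locus with 73 counts in all, has this seed, and no row with a known miRNA name has it.

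chr2_6515_mature (17 nt) starts with the last 9 bases of chr8_19812_mature, from position 13, and runs 8 bases past its end. Its seed AGTGGTA is also that of miR-1957a, a mouse miRNA name with 79 counts in all. chr20_37683_mature (18 nt) shares a run of only 6 bases with chr8_19812_mature and its seed TGGTATC stands in no other row. Which tRNA-Gly gene, and which stretch of it, each locus comes from was not tested. The RefSeq annotation of the sheep assembly ARS-UI_Ramb_v3.0, a later one than that of these data, lists 444 tRNA-Gly genes, of which 250 have the anticodon CCC, 121 UCC, 61 GCC and 12 ACC.

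**Figure D1:**
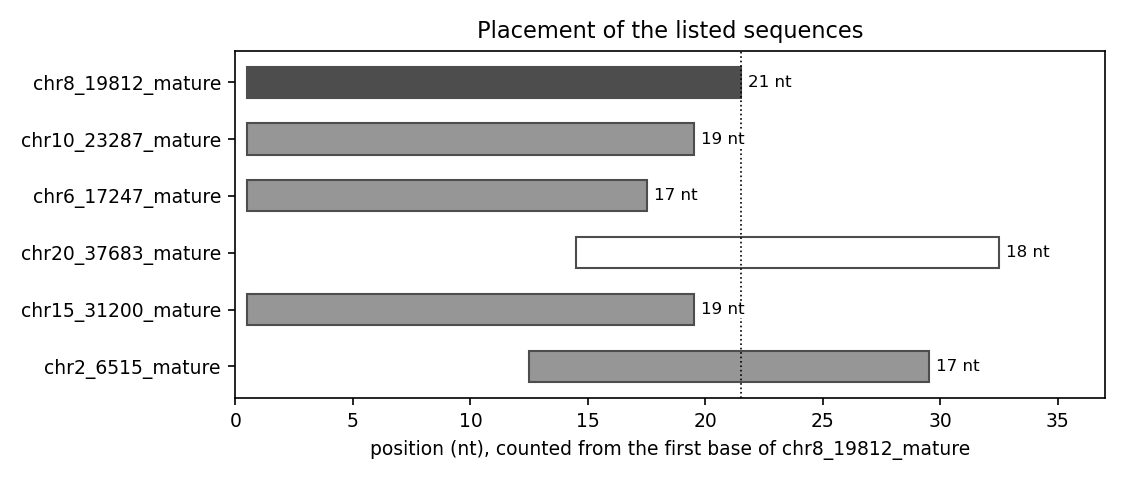
Placement of the 6 listed sequences along chr8_19812_mature. The horizontal axis is the position in nt, counted from its first base, and the dotted line marks its end at 21 nt. The bars of 4 loci start at position 1, chr2_6515_mature starts at position 13, and chr20_37683_mature is drawn as an outline at its best ungapped place because it shares a run of only 6 bases.

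The nested loci were among the most abundant small RNAs of these muscles. Levels are given as CPM, counts per 1000000 counts of a library with 1 row kept per name. Over the 6 libraries chr8_19812_mature had a mean of 12150 CPM, 11th place among 10430 names, between miR-19b (13198 CPM) and miR-143 (11923 CPM). chr10_23287_mature had 11808 CPM (15th place) and chr6_17247_mature 10480 CPM (18th place). The remaining loci were far rarer, with 206 CPM for chr20_37683_mature (135th place), 2.63 CPM for chr2_6515_mature (963rd place) and 1.66 CPM for chr15_31200_mature (1159th place). The order chr8_19812_mature, chr10_23287_mature, chr6_17247_mature, chr20_37683_mature and chr2_6515_mature held in 6 of 6 libraries. chr2_6515_mature lay above chr15_31200_mature in 5 libraries and was equal to it, with 13 counts each, in STH replicate 2.

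All 3 nested loci were lower in QHMM than in STH. chr8_19812_mature had 6484, 5221 and 4971 CPM in the QHMM libraries, against 20854, 17600 and 17774 CPM in the STH libraries. The breeds did not overlap. In single libraries it held place 26 to 28 among the names in QHMM and place 8 or 9 in STH. Its mean was 5559 ± 811 CPM in QHMM and 18742 ± 1831 CPM in STH (SD, n = 3 each). Of the counts with 1 row kept per name, it made up 0.497% to 0.648% in QHMM and 1.76% to 2.09% in STH. Among 1274 names tested with edgeR, its log2 fold change of QHMM over STH was -1.76 (standard error 0.20, adjusted p = 0.000158). A name counted as called where this p, adjusted over all 1274 names, was under 0.05. Since the loci were chosen with this contrast known, the p describes their place in that fit and is no independent support. The value is a level 3.39 times as high in STH, with a 95% interval of 2.53 to 4.55.

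chr10_23287_mature had 6144, 4984 and 4626 CPM in QHMM, against 20423, 17367 and 17307 CPM in STH. Its fold change was -1.82 on the log2 scale (adjusted p = 0.000158, standard error 0.20). chr6_17247_mature had 5568, 4494 and 4251 CPM in QHMM, against 17445, 15586 and 15537 CPM in STH. Its fold change was -1.77 on the log2 scale (adjusted p = 0.000158, standard error 0.20). In both loci every QHMM library lay below every STH library, and replicate 1 was the highest library within each breed. Since the 3 rows can hold the same reads, they are not 3 independent results. With the other 5 loci left out of the fit, chr8_19812_mature had a log2 fold change of -1.76 and remained past the threshold.

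In all, 3 of the 6 loci passed the threshold as lower in QHMM and none as higher. Over all names tested, 1.88% were called lower in QHMM and 0.314% higher. In 4 of the 6 loci all QHMM libraries lay below all STH libraries, which held for 8.71% of all names tested. Among these 4, chr15_31200_mature passed the filter on low counts only through its STH libraries. The filter thus favoured its separation, and the median below includes it. The median log2 fold change was -1.49 over the 6 loci and 0.031 over all names tested. As 4 of the loci share their first 16 bases, these counts describe the loci and are no test of them.

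**Figure D2:**
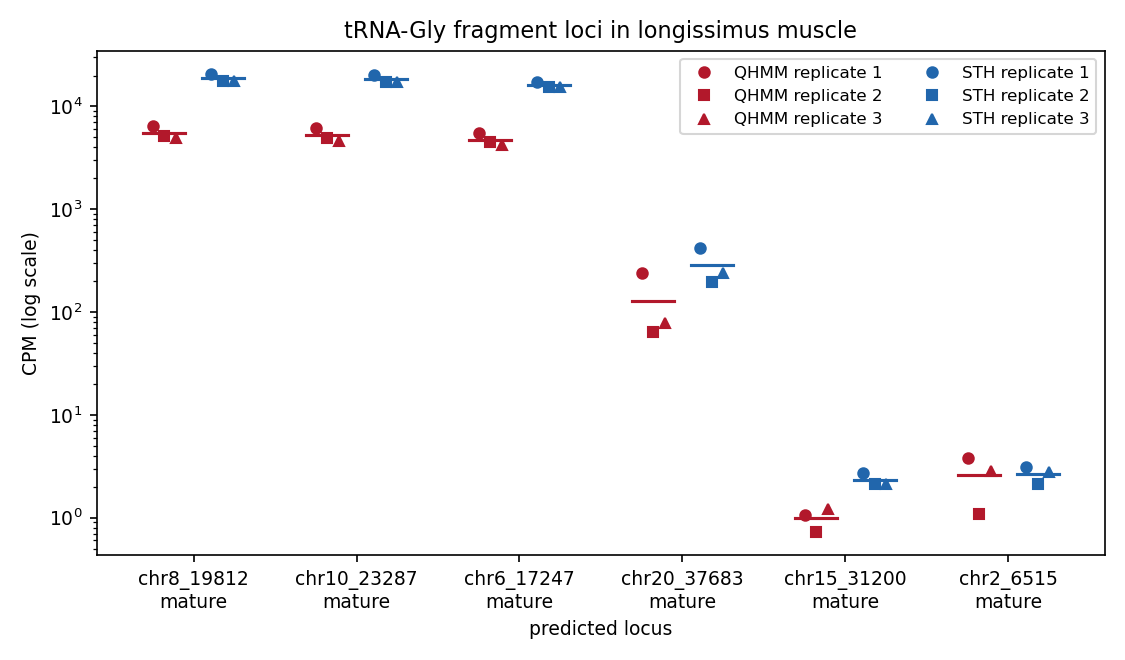
CPM (log scale) of the 6 loci in the 3 QHMM and 3 STH libraries. Points are single libraries and horizontal marks are breed means. The nested loci, the first 3 from the left, lie between 4251 and 6484 CPM in QHMM and between 15537 and 20854 CPM in STH, while the breeds overlap for chr20_37683_mature and chr2_6515_mature.

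chr15_31200_mature, the sequence with the substitution, was counted 8, 4 and 9 times in QHMM, against 20, 13 and 17 times in STH. This was 1.06, 0.718 and 1.21 CPM in QHMM and 2.73, 2.11 and 2.14 CPM in STH, with no overlap. Only the STH libraries carried the locus past the filter on low counts, so the lack of overlap is no support for a difference. Its log2 fold change of -1.21 (standard error 0.43) did not pass (adjusted p = 0.212 from edgeR). By exact Poisson 95% intervals, 4 counts allow 1.09 to 10.2 and 20 counts allow 12.2 to 30.9. The share of the counts with 1 row kept per name, summed within each breed, was 2.29 times as high in STH (95% interval from counting 1.35 to 4.01). Such intervals cover counting error only.

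chr20_37683_mature, the locus that shares least with the others, had 239, 64.4 and 78.3 CPM in QHMM, against 418, 198 and 241 CPM in STH. QHMM replicate 1 reached the level of the STH libraries, and replicate 1 was the highest library in both breeds. Its fold change was -1.22 on the log2 scale (adjusted p = 0.247 from edgeR, standard error 0.45), with a mean of 127 ± 97.2 CPM in QHMM and 286 ± 117 CPM in STH (SD, n = 3 each). Without QHMM replicate 1 the value was -1.97 and passed (adjusted p = 0.00833).

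chr2_6515_mature, the locus that starts at position 13, was counted 29, 6 and 21 times in QHMM, against 23, 13 and 22 times in STH. Its levels overlapped, at 2.58 ± 1.40 CPM in QHMM and 2.67 ± 0.525 CPM in STH (SD, n = 3 each). On the log2 scale the fold change was -0.067 (adjusted p = 0.959 from edgeR, standard error 0.44) with a 95% interval of -1.02 to 0.89, and it was positive without QHMM replicate 2 (0.22) and without STH replicate 1 (0.032). Its bounds correspond to a level in STH of 0.54 to 2.03 times that in QHMM.

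**Figure D3:**
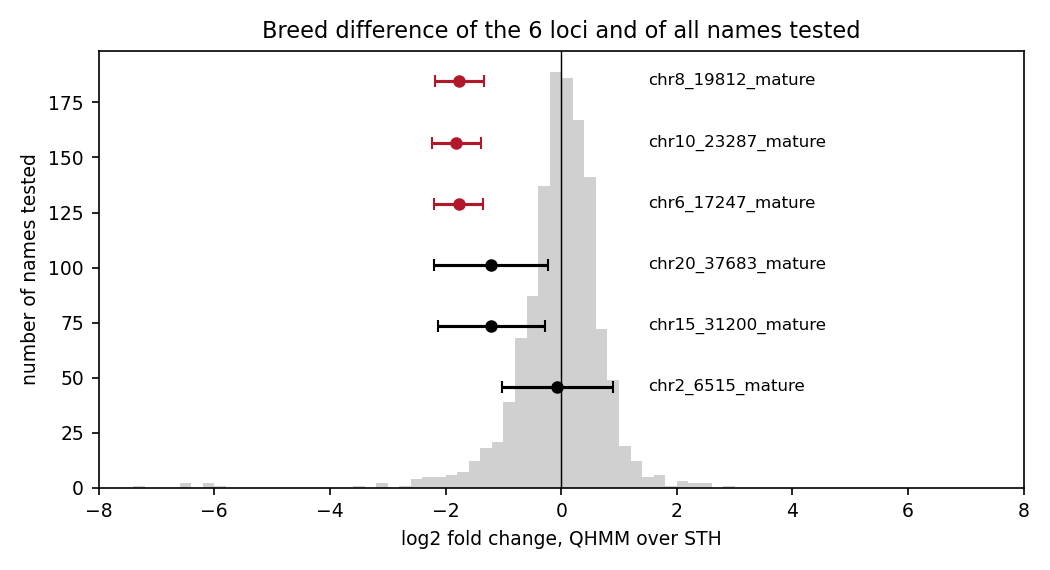
Log2 fold change of QHMM over STH for the 6 loci (points, with 95% intervals from edgeR) above a histogram of the same quantity over all 1274 names tested, whose count is on the vertical axis. The heights of the points carry no value. Points drawn in red passed the threshold, and their intervals lie below -1.34, while the interval of chr2_6515_mature spans 0.

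Whether the loci moved together was asked with the count of each locus as a percentage of that of chr8_19812_mature in the same library, a measure that does not depend on library size. chr6_17247_mature stood at 85.8 ± 0.282% in QHMM and 86.5 ± 2.57% in STH (SD, n = 3 each). chr10_23287_mature stood at 94.8%, 95.5% and 93.1% in QHMM, against 97.9%, 98.7% and 97.4% in STH. The breeds did not overlap in this ratio, but the difference in log2 ratio of QHMM minus STH was only -0.054. The ratio of the nested sequences thus varied little while their level varied between the breeds. Since these rows can hold the same reads, a steady ratio cannot tell whether separate loci moved together.

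The ratios of the other 3 loci spread more widely, and none passed. chr8_19812_mature was itself lower in QHMM (log2 fold change -1.76), so a locus with an unchanged level has a higher ratio in QHMM. The higher ratios below are thus no sign of a higher level, and the levels of chr2_6515_mature overlapped (log2 fold change -0.067). chr2_6515_mature stood at 0.0593%, 0.0206% and 0.0568% of chr8_19812_mature in QHMM, against 0.0151%, 0.0120% and 0.0156% in STH, a difference in log2 ratio of 1.56 with no overlap. chr15_31200_mature stood at 0.0163%, 0.0137% and 0.0243% in QHMM, against 0.0131%, 0.0120% and 0.0121% in STH, a difference of 0.58 with no overlap. Without QHMM replicate 3 this difference was 0.36, and the lowest QHMM ratio rests on 4 counts. chr20_37683_mature stood between 1.23% and 3.69% in QHMM and between 1.12% and 2.00% in STH, a difference of 0.41 with overlap, or -0.056 without QHMM replicate 1. None of the 5 ratios passed: the exact two-sided permutation test gave p = 0.10, the smallest that 3 against 3 allow, for chr10_23287_mature, chr15_31200_mature and chr2_6515_mature (adjusted over the 5 ratios p = 0.167), p = 0.70 for chr6_17247_mature and p = 0.60 for chr20_37683_mature.

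**Figure D4:**
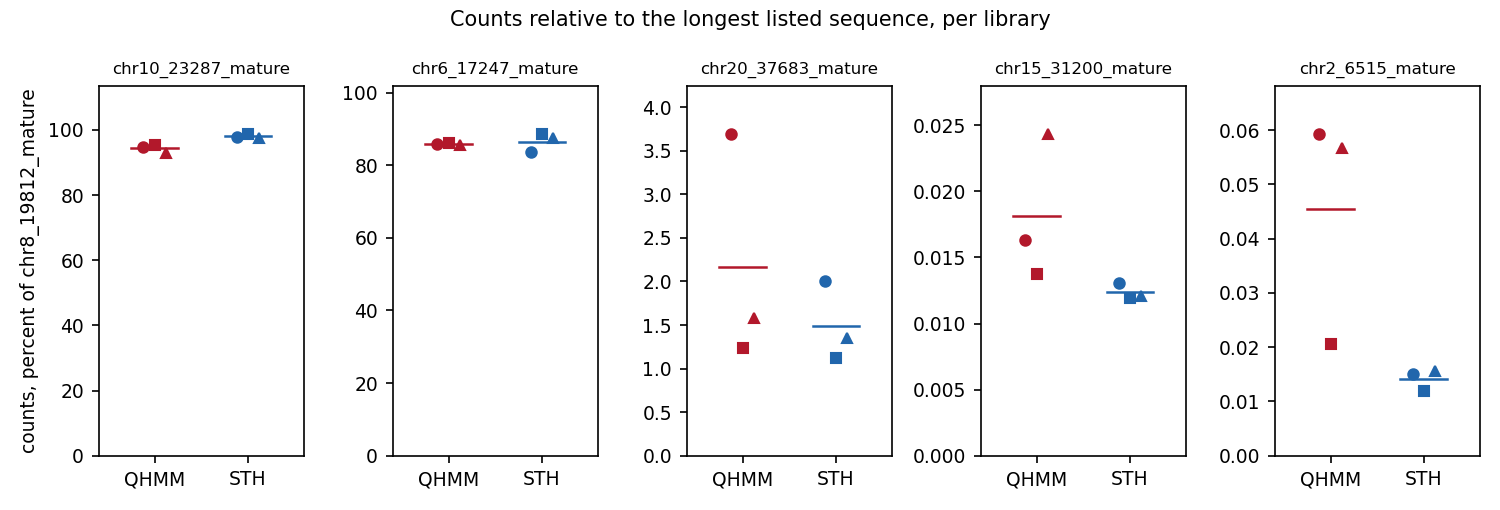
Count of 5 loci as a percentage of the count of chr8_19812_mature in the same library, in QHMM and STH libraries. Points are single libraries, with circles, squares and triangles for replicates 1, 2 and 3, horizontal marks are breed means, and each panel has its own linear axis from 0. The nested loci stay between 83.7% and 98.7% in all libraries, and the ratio of chr2_6515_mature is higher in every QHMM library than in any STH library. Its level in CPM overlaps between the breeds.

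Ratios of nested rows elsewhere in the table ranged widely. Among 13 other pairs in which a row of at least 15 nt lay wholly inside a longer one, each with at least 2000 counts, the shorter row had under 30% of the counts of the longer in 8 pairs. An example is the 17-nt miR-145-5p row on chromosome X with 1.96% of the 22-nt row. The highest ratio, 94332%, was that of a 21-nt row of the muscle miRNA miR-1 to its rare 22-nt row. The pair of miR-23a and miR-23b stood at 96.1%. Of 605 sequences that stood in several rows, 18 had exactly equal counts in all libraries. Of the 140 among them with at least 100 counts in the highest row, none had exactly equal counts and 3 had rows within 5% of each other in every library.

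A miRNA precursor cut by Dicer leaves a second arm, which the prediction lists as the star row of the locus. The star row of chr8_19812 had 0 counts in all libraries beside 517290 counts of the mature row, which allows up to 0.00058%. The star row of chr10_23287 had 5 counts, in STH replicates 2 and 3 only, beside 502537. That of chr6_17247 was counted 11, 11 and 10 times in QHMM and 11, 4 and 38 times in STH, 0.0191% of the counts of both arms. That of chr20_37683 had 2 counts beside 8939. chr15_31200 and chr2_6515 had 3 and 6 star counts, 4.05% and 5% of both arms, on few counts. For comparison, the median share of the star row was 0.997% over 148 predicted loci with a known miRNA name and at least 1000 mature counts, where 5 had none, and 0.231% over 111 such loci with no known name, where 14 had none. The listed mature and star sequences of each locus, and not the reads themselves, are what was compared here.

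Outside the 6 loci, 5 rows share a run of 14 or more bases with a member, 155 counts in all. They are shown with the shared run in capitals, with the bases outside it in lower case.
chr15_30625_mature and chr15_30626_mature: TTGGTGGTTCAGTGGTc
chr1_3563_mature and chr1_3564_mature: gctATTGGTGGTTCAGT
chr15_31518_mature: TGGTGGTTCAGTTGgtag

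chr15_31518_mature, whose run is shared with chr15_31200_mature, was counted 5, 2 and 1 times in QHMM, against 16, 10 and 17 times in STH. Its log2 fold change was -2.33 (standard error 0.54) with an adjusted p of 0.0415 from edgeR, and the p lay between 0.0381 and 0.2003 over 13 alternatives, under 0.05 in 4 of them. It passed in none of the fits without 1 library, nor with no filter on low counts. Only the STH libraries carried this row past that filter, which favoured its separation. Its passing p is thus no support for a difference. chr15_30625_mature had 1 count in each QHMM library, against 8, 3 and 7 in STH, while chr15_30626_mature, of the same sequence, had 3, 1 and 4 in QHMM and 4, 4 and 3 in STH. chr1_3564_mature was counted 3, 1 and 5 times in QHMM, against 4, 9 and 12 times in STH. chr1_3563_mature, of the same sequence, was counted 5, 5 and 1 times in QHMM, against 6, 8 and 5 times in STH. These 4 rows were too rare for the filter. Summed over the libraries, all 5 rows had fewer counts in QHMM, with 3 to 11 in QHMM and 11 to 43 in STH.

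Some fragments of tRNAs have been named as miRNAs. Of 10 such names listed for the comparison, 4 had a row, and none of these passed in either direction, beside 1.88% of all names called lower and 0.314% called higher in QHMM. miR-4454 had 569, 738 and 1008 CPM in QHMM, against 355, 497 and 816 CPM in STH. Its log2 fold change was 0.49 (adjusted p = 0.566 from edgeR, standard error 0.33). miR-1260b, cut from tRNA-Leu, had 228, 207 and 423 CPM in QHMM, against 474, 475 and 563 CPM in STH. Its log2 fold change was -0.82 (adjusted p = 0.238, standard error 0.30). The breeds overlapped for miR-4454 and not for miR-1260b. The rarer miR-1260a (9.63 CPM on average) and miR-1983 (2.24 CPM) had log2 fold changes of 0.28 and 0.49 (adjusted p = 0.766 and 0.676). The 4 names summed to 810 to 1449 CPM in QHMM and 839 to 1392 CPM in STH.

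The names whose level across the 6 libraries was most like that of chr8_19812_mature were taken by Pearson's r of log2(CPM + 1) among 1264 names that share no run of 10 or more bases with a member. Over these 6 libraries r was 0.97 to 0.99 for the top 5, all of them lower in every QHMM library than in any STH library. The choice by r favours names with this separation, which held for 8.71% of all names tested. Within breeds r of the same 5 ran from -0.55 to 0.59. chr17_33629_star had 5.30, 5.38 and 5.11 CPM in QHMM, against 91.8, 47.8 and 36.9 CPM in STH. miR-449a-5p, a miRNA of ciliated epithelia, had 0.133, 0.179 and 0 CPM in QHMM, against 7.10, 6.64 and 10.3 CPM in STH. miR-3607-3p had 2.65, 2.87 and 2.82 CPM in QHMM, against 5.33, 5.18 and 5.67 CPM in STH, and chr19_35546_mature 0.806 to 1.06 CPM in QHMM and 1.77 to 1.94 CPM in STH. chrx_45982_mature was listed at 0 in all QHMM libraries and had 1.46 to 1.77 CPM in STH. By edgeR, chr17_33629_star, miR-449a-5p and chrx_45982_mature passed the threshold, and miR-3607-3p and chr19_35546_mature did not (adjusted p = 0.239 and 0.337). Only their STH libraries carried miR-449a-5p, chrx_45982_mature and chr19_35546_mature past the filter on low counts. Among the members, r with chr8_19812_mature within breeds was 0.997 for chr10_23287_mature and 0.987 for chr6_17247_mature, the sequences that can hold the same reads. It was 0.955 for chr20_37683_mature, which shares only 6 bases, and 0.598 and 0.396 for the rare chr2_6515_mature and chr15_31200_mature. For chr20_37683_mature r without removal of the breed means was 0.806. Replicate 1 was the highest library of each breed for chr20_37683_mature and chr8_19812_mature, and r rests on 6 libraries. For r within breeds, removal of the breed means leaves fewer free values than that.

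The libraries held 8062231 to 10276427 counts in QHMM and 8681817 to 11282332 in STH over all rows. More rows had a count in STH, 51.4% to 63.9% of all rows, than in QHMM, 41.8% to 49.7%, and the part of this in the breed difference of the loci was not tested. Marker miRNAs were summed for cell types the tissue could hold. Muscle markers, all 6 found, summed to 518573 to 547122 CPM in QHMM and 450978 to 536814 CPM in STH, most of it miR-1. Within this list miR-208b (114 to 196 CPM in QHMM, 60.0 to 71.0 CPM in STH) and miR-499 (1534 to 3829 CPM in QHMM, 751 to 1397 CPM in STH) were higher in every QHMM library, and miR-206 (28582 to 35817 CPM in QHMM, 38285 to 40771 CPM in STH) was lower in every QHMM library. The 3 markers of red blood cells summed to 18967 to 84308 CPM in QHMM, the highest in QHMM replicate 3, and 7299 to 13838 CPM in STH, and the 3 of leukocytes to 1765 to 1942 CPM in QHMM and 1165 to 1425 CPM in STH. Both sums were higher in every QHMM library, as were miR-451, miR-144 and miR-142 alone, while miR-486, miR-150 and miR-223 overlapped between the breeds. The part of these markers in the breed difference of the loci was not tested. The 5 epithelial markers summed to 4.49 to 31.4 CPM in QHMM and 2.92 to 20.2 CPM in STH, with miR-141 at 0 in STH replicate 2 and miR-429 at 0 in QHMM replicates 2 and 3 and in STH replicate 2. Endothelial miR-126 summed to 12781 to 27421 CPM in QHMM and 23285 to 25304 CPM in STH. In such bulk samples, more cells of a type and more of an RNA per cell cannot be told apart.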

How the data were processed

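Total RNA of longissimus muscle (3 libraries a breed) was made into libraries with an Ion Total RNA-Seq kit, with PAGE size selection for miRNA and single-end reads. The values, as deposited, are raw whole-number counts of reads for each listed sequence, in 1 column per library. All value columns were mapped to libraries. The submitters' processing notes name DESeq and Oar_v3.1. The miRNA caller and the aligner were not given in the sources used here, nor was the handling of reads that match more than 1 row. Listed sequences run from 12 to 29 nt.

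Species prefixes were removed, and of the rows of each of 450 repeated names only that with most counts stayed, which left 10430 names. CPM are relative to the total over these names, 5572865 to 7930202 counts per library. The breeds were compared across all names by the quasi-likelihood test of edgeR 4.0.16 under R 4.3.3 (robust fit, TMM factors, filterByExpr, no covariates). Log2 fold changes are QHMM over STH, standard errors derive from the F statistic, and a Benjamini-Hochberg adjusted p under 0.05 over 1274 names counted as called. Replicates differed by more than sampling noise: within a breed, chi-square divided by its degrees of freedom was at least 109. Ratios used a pseudocount of 0.5 and an exact permutation test (scipy 1.17.1). Alternatives were RLE and upper-quartile factors, DESeq2 1.42.0, other filters, a replicate block, other treatments of rows of a name, only the most abundant of the 6 loci kept, and each library left out. Where only the most abundant locus was kept, the rows with a shared run of 14 bases were left out too. The edgeR fit was tested on simulated data. The members, the lists and the rule for named rows (all members, rows with a shared run of 14 bases, detected names of the tRNA-derived list, the 5 most alike names) were chosen with earlier results of these data known. The nested pairs and the star comparison with other loci were chosen after the data were seen.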

Additional observations from a re-analysis of the deposited data

How the results depend on the processing

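Of the 6 loci, 3 passed the threshold in 11 of 14 alternatives and 4 in the other 3 (no filter on low counts, replicate block, without QHMM replicate 1), where chr20_37683_mature joined them. chr8_19812_mature, chr10_23287_mature and chr6_17247_mature were lower in QHMM and past the threshold in each alternative run, with log2 fold changes of -1.85 to -1.68, -1.90 to -1.74 and -1.86 to -1.69 and adjusted p up to 0.0048. chr15_31200_mature ran from -1.40 to -1.11 and never passed (0.197 to 0.688). chr20_37683_mature passed with no filter on low counts (-1.15), with the replicate block (-1.35) and without QHMM replicate 1, and ran from -1.97 to -0.87 with each library left out. chr2_6515_mature turned positive with no filter (0.011) and ran from -0.42 to 0.22 with each library left out. It was also positive without QHMM replicate 2 (0.22) and without STH replicate 1 (0.032). The cause of these changes was not tested. With at least 10 counts in every library, chr15_31200_mature and chr2_6515_mature were not tested.

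For replicate numbers 1, 2 and 3, deviations from the breed means correlated across the breeds by 0.0116, 0.198 and 0.163, each above the correlation with other numbers. Deviations cancel out within a breed, so a positive correlation for the same number lowers those with other numbers. Being above them is therefore little added sign of pairing. The first correlation is too low to take the numbers as pairs. The replicate block gave 26 calls in place of 28. The count of all calls was 49 with DESeq2, 64 with no filter, 8 under the 10-count minimum and 16 to 35 when single libraries were left out. The log2 ratio of chr6_17247_mature ran from -0.036 to 0.0051, and that of chr20_37683_mature from -0.056 to 0.73, when single libraries were left out. Rows sharing bases with a member were 5 at 12 bases and 2 at 16. The counts behind chr15_31200_mature and chr2_6515_mature were few, 71 and 114 in all. Their standard errors, 0.43 and 0.44, were close to the 0.45 of chr20_37683_mature with 8939 counts.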
